A study of Rattus norvegicus with 6 samples.

Results

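The genes described here encode the enzymes that build serotonin and melatonin from tryptophan, together with the enzymes that make and recycle the cofactor of the opening step. They are Tph1, Ddc, Aanat, Asmt, Gch1, Pts, Spr and Qdpr of the rat. They were chosen by name, as the probes whose platform annotation gives 1 of these symbols and no other. Each gene had 1 such probe, with a value on all 6 arrays, and together they are 8 of the 12167 genes that 16865 probes with a single symbol name.

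Serotonin is made from tryptophan by hydroxylation, which Tph1 carries out in the pineal gland, followed by decarboxylation by Ddc. Pinealocytes then acetylate serotonin through Aanat and methylate the product through Asmt, which gives melatonin, the hormone the gland secretes at night. Tryptophan hydroxylase depends on tetrahydrobiopterin, a cofactor that Gch1, Pts and Spr assemble from guanosine triphosphate and that Qdpr returns to its reduced form after use. In the rat, Aanat is known for its steep nightly rise under noradrenergic input from the sympathetic nerves.

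All samples were total RNA of adult male Sprague-Dawley rats described as normal, and no group carried a treatment or an altered gene. The pineal gland was hybridised to 2 arrays, and every other tissue to 1: the subcommissural organ ("Subcommisural Organ" in the labels), the subfornical organ, the third ventricle ependyma and total brain. Each of the other captured tissues was a pool of 2, while total brain was a pool of normal brains that served as the reference of the study. The tissues other than total brain were isolated by laser capture, and 3 ng of RNA from each sample went through 2 rounds of amplification before hybridisation in a single colour. The labels name no time of day, no marker used to choose cells and no batch, and they do not say whether separate animals gave the pineal gland samples.

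The start regions of the genes whose promoter held a motif of the pineal transcription factors or of the cAMP pathway are shown first, because cAMP and the homeodomain factors Otx2 and Crx are known to act on pineal genes of the rat. Promoters of all 8 genes were found in RefSeq for the build GRCr8, 10 in number because Ddc has 3, each running from 250 bases before the start site to 50 after it. Capitals mark TAATC, the core that Otx2 and Crx recognise, and TGACG, the core of the cAMP response element, on either strand. The windows are chr1:106314579-106314878 on the minus strand for Tph1, chr10:102326073-102326372 on the plus strand for Aanat, chr12:21423287-21423586 on the minus strand for Asmt and chr15:22917363-22917662 on the minus strand for Gch1.
Tph1: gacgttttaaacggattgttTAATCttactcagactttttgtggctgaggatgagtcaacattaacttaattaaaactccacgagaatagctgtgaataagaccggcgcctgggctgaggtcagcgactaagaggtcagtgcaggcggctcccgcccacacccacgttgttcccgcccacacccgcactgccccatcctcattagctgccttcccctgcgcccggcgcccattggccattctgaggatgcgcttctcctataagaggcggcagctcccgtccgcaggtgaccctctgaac
Aanat: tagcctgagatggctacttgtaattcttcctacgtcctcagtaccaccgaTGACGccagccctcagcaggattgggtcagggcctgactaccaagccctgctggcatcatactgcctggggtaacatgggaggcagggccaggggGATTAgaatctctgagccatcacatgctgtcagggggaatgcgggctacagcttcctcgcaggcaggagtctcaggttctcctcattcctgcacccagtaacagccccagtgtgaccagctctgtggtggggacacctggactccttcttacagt
Asmt: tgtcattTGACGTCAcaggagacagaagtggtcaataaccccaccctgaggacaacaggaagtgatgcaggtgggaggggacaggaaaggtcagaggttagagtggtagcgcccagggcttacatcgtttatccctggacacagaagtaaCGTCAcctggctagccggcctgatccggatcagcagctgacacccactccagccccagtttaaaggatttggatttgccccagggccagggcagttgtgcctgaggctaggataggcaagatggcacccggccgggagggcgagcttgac
Gch1: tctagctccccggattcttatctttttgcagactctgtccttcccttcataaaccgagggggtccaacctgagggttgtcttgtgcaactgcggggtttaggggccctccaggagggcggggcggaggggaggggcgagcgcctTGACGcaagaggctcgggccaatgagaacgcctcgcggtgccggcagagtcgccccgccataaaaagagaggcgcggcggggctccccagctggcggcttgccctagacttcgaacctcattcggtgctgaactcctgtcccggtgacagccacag

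Positions are counted from the start site, with the last base before it at -1. The Tph1 promoter held TAATC at -230 to -226. In the Aanat promoter, the longer form TAATCC lay on the opposite strand at -106 to -101, and TGACG lay at -200 to -196. Asmt had the full palindrome TGACGTCA at -243 to -236, which contains TGACG on both strands, and a further TGACG on the opposite strand at -100 to -96. Gch1 had TGACG at -106 to -102. The 3 promoters of Ddc and those of Pts, Spr and Qdpr held neither TAATC nor TGACG. The CCAAT box, a common promoter element searched on both strands, lay once in Tph1, Aanat, Gch1, Qdpr and 1 promoter of Ddc, lay at 2 positions in Spr and was not found in Asmt or Pts. Of 33469 RefSeq promoters of the same length, TAATC was in 22.9%, TAATCC in 7.17%, TGACG in 21.2%, TGACGTCA in 1.83% and CCAAT in 37.5%. These are matches of letters in a window, with no measurement of binding here.

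Levels are the deposited intensities on a linear scale, in arbitrary units, and array medians lay between 1.04 and 1.07. The term measured is used where the mean log2 value of the higher side of a comparison reached that of 1.05, the pooled median of all probes, and log2 was taken after setting lower values to a floor of 0.142, the pooled 5th percentile. Of 8555 genes measured on the pineal gland pair, 95% differed by less than 1.64 on the log2 scale between the arrays, or 3.13-fold, and for 4604 genes whose mean reached the pooled 75th percentile that limit was 1.25. The pineal pair is the only measure of spread, and the small number of arrays limits how precise any value is. Pinealocyte markers outside the 8 enzymes, such as Pdc and Gnat2, were above the median for 10 of 10 genes on both pineal gland arrays, with summed levels of 2618 and 2302, against 32.9 in the subcommissural organ, 25.5 in the subfornical organ, 58.4 in the ependyma and 42.9 in total brain. Markers of motile cilia summed to 1188 in the subcommissural organ, 292 in the subfornical organ and 1337 in the ependyma, against 52.0 in total brain, although Foxj1, which defines that class, stayed under the median on all 6 arrays. Creb3l4, a marker of the subcommissural organ, was at 76.5 there and between 0.0806 and 0.515 on the other arrays. Pax6, of the same list, was at 26.7 there and between 0.372 and 5.18 on the others. Msx1, also of that list, was at 241 there but at 204 in the ependyma, and the list summed to 344 and 206 in these tissues. The subfornical organ list (Agtr1a, Scn7a, Plvap) was above the median for 3 of 3 genes on the subfornical array, but its sum there, 8.72, was below the 40.7 and 27.7 of the pineal gland and the 18.9 of total brain.

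Of the 8 enzyme genes, 5 were higher in the pineal gland than in total brain by limma at an adjusted p under 0.05, which are the 4 enzymes from tryptophan to melatonin and Gch1, where the tetrahydrobiopterin pathway begins. None was lower, and Pts, Spr and Qdpr did not pass. Among all 9072 measured genes 7.67% were called higher and 16.1% lower. The log2 difference had a median of 3.06 over the 8 genes, or 2.02 with values under the pooled median raised to it, against -0.45 over all measured genes. Among markers of other cell types near the gland, some were higher there and others were not. The 5 choroid plexus markers summed to 216 and 218 in the pineal gland, 92.5 in the subcommissural organ, 16.5 in the subfornical organ, 86.0 in the ependyma and 135 in total brain, with F5 and Kcne2 called higher and none lower against total brain. Ttr, which defines choroid plexus, was at 104 and 152 in the gland and 116 in total brain and did not pass (limma adjusted p 0.941). It was at 1.61 in the subcommissural organ, 4.17 in the subfornical organ and 4.97 in the ependyma, and was called higher in the gland against each. Folr1, of the same list, went the other way, at 3.09 and 8.81 in the gland. With 60.7 in the subcommissural organ and 79.7 in the ependyma, it made up most of their sums and was called lower in the gland against both. The 5 habenula markers summed to 89.5 and 65.1 in the pineal gland, 32.3 in the subcommissural organ, 6.86 in the subfornical organ, 36.6 in the ependyma and 92.9 in total brain, with 1 called higher and 2 lower against total brain. Their higher call was Chrnb4, a nicotinic receptor subunit, at 86.7 and 62.6 in the gland and between 0.614 and 2.77 on the other arrays, called against all 4 tissues, while Pou4f1 and Gpr151, which define the habenula, were under the pooled median on all 6 arrays. The part of these cells in the enzyme levels was not tested. In a piece of tissue, fewer cells of a type and less RNA per cell cannot be told apart, so each value is a level in the sample and not in a cell.

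**Figure D1:**
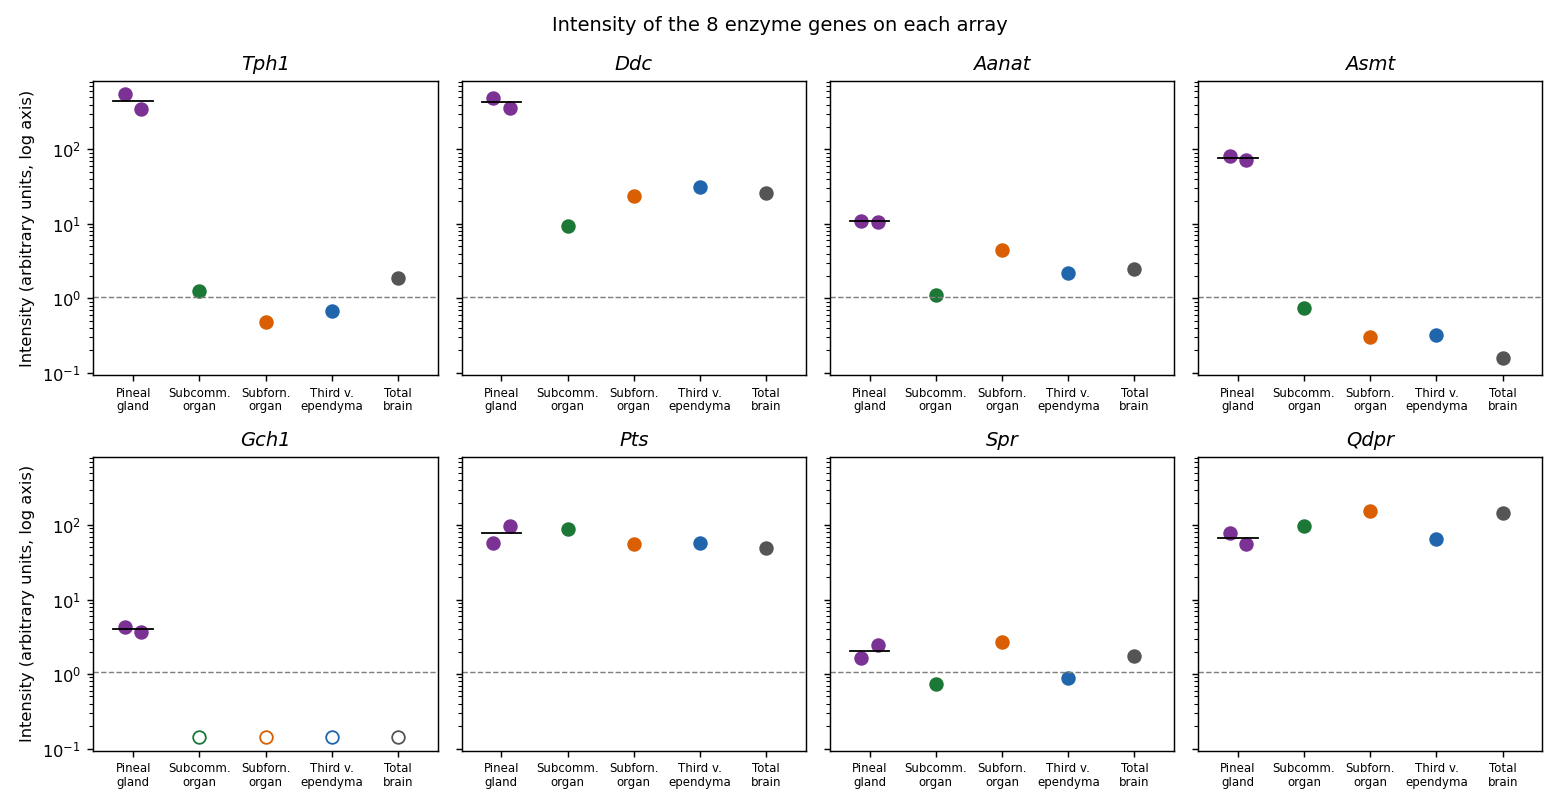
Intensity of each enzyme gene (arbitrary units, log axis) on every array, with 2 points for the pineal gland and their mean as a bar, and 1 point for each other tissue. The dashed line is the pooled median of 1.05, open circles are values under the floor of 0.142, and the pineal gland points of Tph1, Ddc, Aanat, Asmt and Gch1 lie above those of all other tissues while Pts, Spr and Qdpr overlap them.

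Tph1 (probe 214065), which hydroxylates tryptophan and limits the rate of serotonin synthesis, stood at 547 and 352 in the pineal gland, 1.25 in the subcommissural organ, 0.475 in the subfornical organ, 0.682 in the ependyma and 1.91 in total brain. Both pineal gland arrays were far above every other array, and the groups did not overlap. The mean in the gland was 449 ± 138 (SD, n = 2). Folds are taken from means of log2 values, here and for every gene, so they differ a little from ratios of the arithmetic means, and by that measure Tph1 was 230-fold above total brain (log2 difference 7.85, limma SE 0.72, adjusted p 1.24e-24) and 351-fold above the subcommissural organ. Against the subfornical organ and the ependyma, where Tph1 was under the pooled median, the difference was at least 417-fold. Its close relative Tph2, the tryptophan hydroxylase of serotonin neurons, was at 0.470 and 0.245 in the pineal gland and between 0.333 and 0.901 elsewhere, all under the pooled median. Mast cells can also express Tph1, and the summed level of 7 mast cell markers was 12.1 and 11 in the pineal gland, 64.6 in the subcommissural organ, 20.7 in the subfornical organ, 168 in the ependyma and 15.8 in total brain. Cpa3 and Mcpt1, which define mast cells, were under the median on all 6 arrays, and the sums elsewhere came mostly from Hdc, the histamine-forming enzyme, at 60.4 in the subcommissural organ and 162 in the ependyma. Fcer1a, a chain of the IgE receptor of mast cells, went the other way, at 4.0 and 4.76 in the pineal gland and between 0.226 and 0.833 on the other arrays, and it was called higher in the gland against all 4 tissues (at least 4.15-fold). The part of mast cells in the Tph1 level was not tested.

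Ddc (probe 237039), the decarboxylase that forms serotonin and also dopamine, was at 491 and 363 in the pineal gland, 9.48 in the subcommissural organ, 23.9 in the subfornical organ, 31.0 in the ependyma and 26.1 in total brain. The gland was highest without overlap, but unlike Tph1 the gene was well above the pooled median on every array. Its mean in the gland was 427 ± 90.6 (SD, n = 2), and Ddc was 16.1-fold higher there than in total brain (log2 difference 4.01, limma SE 0.72, adjusted p 5.74e-07). It was 13.6-fold higher than in the ependyma, 17.6-fold higher than in the subfornical organ and 44.5-fold higher than in the subcommissural organ. Outside the gland, the subcommissural organ was the lowest, 1.34 below the subfornical organ on the log2 scale. Catecholamine neurons use Ddc too, and their 4 markers summed to 2.34 and 3.09 in the pineal gland, 3.61 in the subcommissural organ, 4.04 in the subfornical organ, 18.0 in the ependyma and 13.3 in total brain. None of the 4 was above the pooled median on either pineal gland array. The 6 markers of serotonin neurons summed to 4.76 and 5.42 in the pineal gland, 2.67 in the subcommissural organ, 24.9 in the subfornical organ, 5.35 in the ependyma and 11.6 in total brain. The subfornical sum came mostly from 1 gene, the transporter Slc22a3 at 21.5, with the other 5 markers under the pooled median there, and the part of these neurons in the Ddc levels was not tested.

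Aanat (probe 174040), which acetylates serotonin, had close values of 10.9 and 10.7 in the pineal gland, 1.11 in the subcommissural organ, 4.44 in the subfornical organ, 2.20 in the ependyma and 2.50 in total brain. The pineal gland was again above every other array, by a smaller margin than for Tph1, Ddc and Asmt in each of the comparisons. Its mean was 10.8 ± 0.119 (SD, n = 2), and it was 4.32-fold higher than in total brain, with a log2 difference of 2.11 (95% interval 0.69 to 3.53, limma adjusted p 0.0185). Over the same comparison the adjusted p reached 0.101 without the filter on low values and 0.0654 when every probe was tested on its own. Aanat was 4.91-fold above the ependyma (limma adjusted p 0.00964), where these settings gave 0.0938 and 0.0596, and 9.72-fold above the subcommissural organ (limma adjusted p 6.01e-05). Against the subfornical organ the log2 difference of 1.28 did not pass (95% interval -0.14 to 2.70, limma adjusted p 0.23), which does not show that the levels were alike. The labels give no time of day for any sample.

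Asmt (probe 137007), the methyltransferase that completes melatonin, was at 80.4 and 72.4 in the pineal gland, 0.747 in the subcommissural organ, 0.301 in the subfornical organ, 0.319 in the ependyma and 0.159 in total brain. The pineal gland alone was above the pooled median, and the groups did not overlap. With a mean of 76.4 ± 5.67 (SD, n = 2), the gland was at least 72.6-fold higher than each other tissue. The log2 differences in limma were 8.90 against total brain, 7.90 against the ependyma, 6.67 against the subcommissural organ and 7.99 against the subfornical organ, with adjusted p-values between 2.55e-31 and 1.70e-18. They differ only through values near the lower end of the scale, and each becomes 6.18 once values under the pooled median are raised to it.

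Gch1 (probe 24051), which begins the synthesis of tetrahydrobiopterin, stood at 4.31 and 3.69 in the pineal gland, 0.0127 in the subcommissural organ, 0.130 in the subfornical organ, -0.135 in the ependyma and 0.0710 in total brain. Both pineal gland arrays were above the pooled median, and the other 4 values lay under the floor of 0.142, so they have no order among themselves. The mean of 4.0 ± 0.441 (SD, n = 2) was at least 3.80-fold higher than each other tissue. The fitted log2 difference of 4.81 (limma adjusted p 9.97e-10 against total brain) rests on the floor. Raised to the pooled median instead, the difference was 1.92, so that Gch1 no longer reached 4-fold. Its pineal level was under the 75th percentile, which removed it under the stricter filter.

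Pts (probe 320064), which carries out the next step of cofactor synthesis, was at 58.2 and 97.8 in the pineal gland, 88.2 in the subcommissural organ, 56.1 in the subfornical organ, 58.1 in the ependyma and 49.7 in total brain. The tissues overlapped, and the subcommissural organ lay between the pineal gland arrays. The log2 difference from total brain was 0.60 (95% interval -0.82 to 2.02, limma adjusted p 0.631), and the other comparisons of the pineal gland gave differences between -0.23 and 0.43.

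Spr (probe 57100), which makes the final reduction to tetrahydrobiopterin, was at 1.67 and 2.45 in the pineal gland, 0.736 in the subcommissural organ, 2.73 in the subfornical organ, 0.886 in the ependyma and 1.74 in total brain. The subfornical organ was highest, total brain lay between the pineal gland arrays, and the subcommissural organ and the ependyma were under the pooled median. The log2 difference from the subcommissural organ, 1.46 (95% interval 0.06 to 2.86), had an unadjusted p of 0.0411 in limma and an adjusted p of 0.148. Against total brain the difference was 0.21, and it was -0.06 without the second pineal gland array. Against the ependyma it was 1.19 and against the subfornical organ -0.43, and neither passed (limma adjusted p 0.292 and 0.778).

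Qdpr (probe 84023), which regenerates the cofactor after each turn of the hydroxylase, was at 78.5 and 55.9 in the pineal gland, 96.0 in the subcommissural organ, 153 in the subfornical organ, 64.2 in the ependyma and 144 in total brain. Here the gland was among the lowest tissues and overlapped the ependyma. The log2 difference from total brain was -1.12 (95% interval -2.53 to 0.30, limma adjusted p 0.294) and that from the subfornical organ -1.21 (95% interval -2.63 to 0.21, limma adjusted p 0.267). After quantile normalization, which moved the median of all genes against total brain to 0.03, these differences were -0.63 and -0.86.

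**Figure D2:**
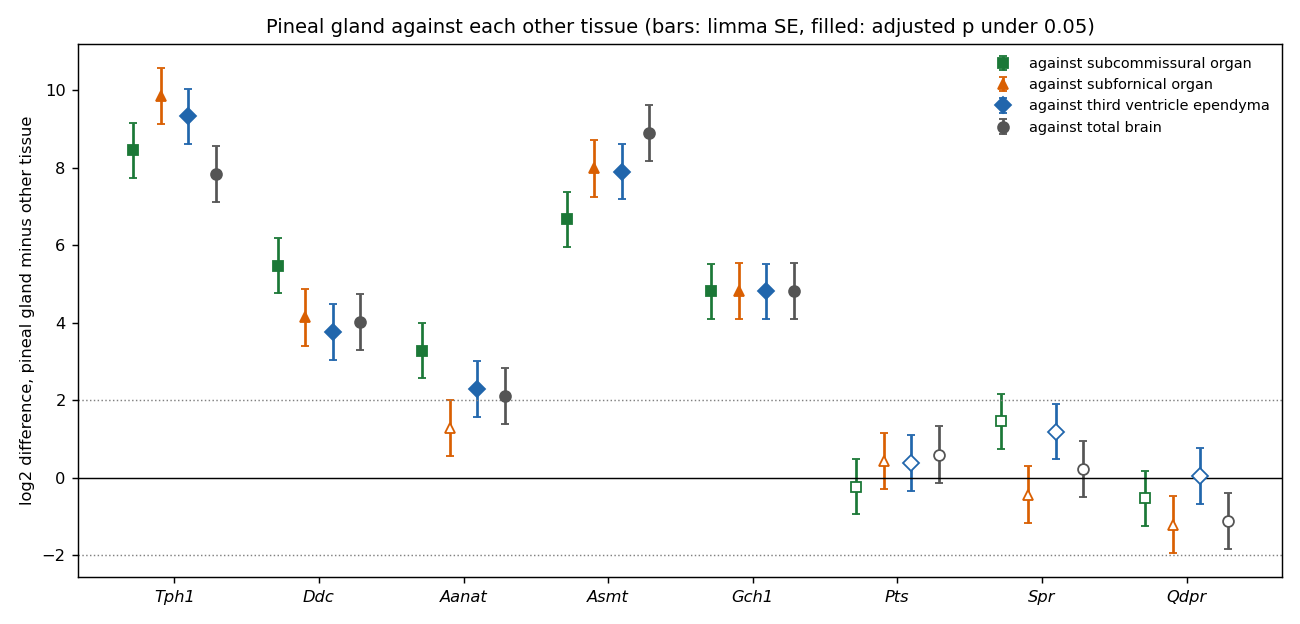
Log2 difference of the pineal gland minus each other tissue for the 8 enzyme genes, with limma standard errors between 0.71 and 0.73 as bars and dotted lines at 4-fold. Filled symbols passed an adjusted p under 0.05: Tph1, Ddc, Asmt and Gch1 against all 4 tissues and Aanat against 3 of them, while Pts, Spr and Qdpr scatter around 0.

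Against the ependyma the same 5 genes were called higher as against total brain, where 7.25% of 8963 measured genes were, and against the subcommissural organ these 5 again, where the share was 9.29% of 8840. Against the subfornical organ Tph1, Ddc, Asmt and Gch1 were called, where 7.02% of 9003 measured genes were higher. No enzyme gene was called lower in these 3 comparisons, where the shares of all measured genes were 12.9% against the ependyma, 11.5% against the subcommissural organ and 13.7% against the subfornical organ. The called enzymes were also those at least 4-fold higher with both pineal gland arrays on the same side, a rule met by 6.71%, 6.5%, 8.21% and 6.18% of all measured genes against total brain, the ependyma, the subcommissural organ and the subfornical organ. The comparisons share the pineal gland arrays, so they do not count as separate evidence. The fit had 1 residual degree of freedom, which the pineal gland arrays supply, and tissues with a single array were taken to vary as much as these arrays do. After moderation all genes had 1 common spread, which the fit against total brain treated as known with 9072 total degrees of freedom. The small p-values rest on that shared spread. A call thus amounted to a minimum log2 difference of 1.82 against total brain, 1.85 against the ependyma, 1.83 against the subcommissural organ and 1.86 against the subfornical organ. The p-values measure the spread between these arrays alone, which may be technical. Under other settings the adjusted p-values in limma were much larger and reached 0.0144 for Tph1, 0.0238 for Ddc, 0.0144 for Asmt and 0.0172 for Gch1, all still called.

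**Figure D3:**
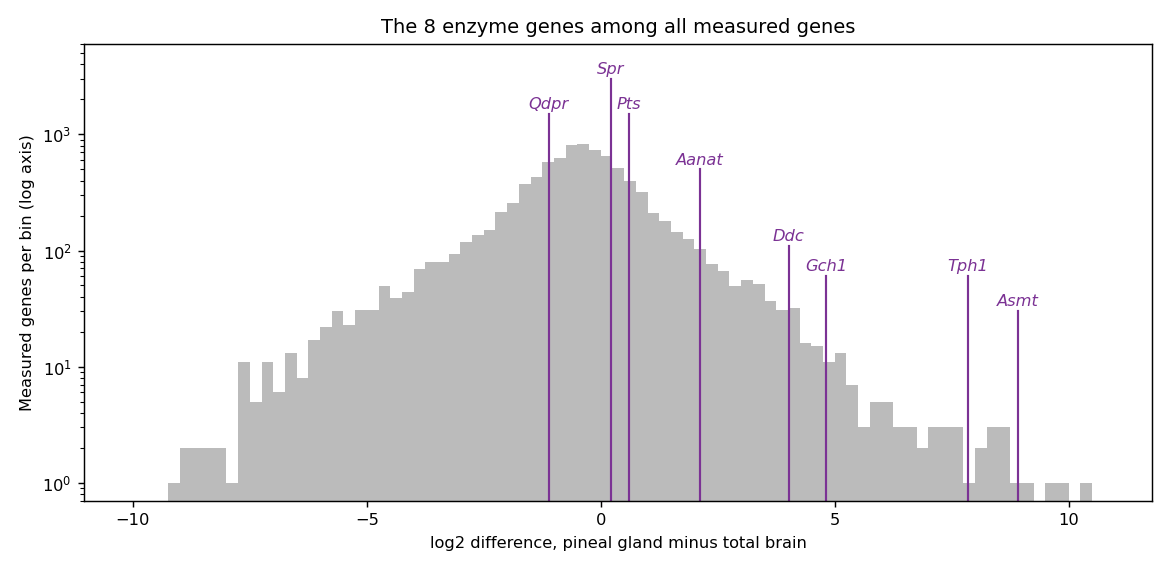
Number of measured genes (log axis) by log2 difference of the pineal gland minus total brain, in grey for all 9072 genes, with the 8 enzyme genes marked by lines. Tph1 at 7.85 and Asmt at 8.90 lie in the upper tail, Gch1 at 4.81 and Ddc at 4.01 lie on the upper slope with Aanat at 2.11, and Pts, Spr and Qdpr lie in the body, whose median was -0.45.

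The order of the tissues differed among the 8 genes. For Tph1 and Ddc the gap between the pineal gland and the next tissue, 7.85 and 3.77 on the log2 scale, was larger than the 1.64 within which 95% of genes lay on the pineal pair. For Asmt and Gch1, with all other tissues under the pooled median, that gap is bounded only as at least 6.18 and at least 1.92, and the bound of Gch1 is not far above 1.64. For Aanat that gap, 1.28 to the subfornical organ, was under 1.64 and close to the 1.25 of brighter genes. None of the gaps between neighbouring tissues below the pineal gland exceeded 1.64 for any of the 8 genes, and the largest was the 1.34 of Ddc between the subfornical and the subcommissural organ. For Pts, Spr and Qdpr no neighbouring tissues differed beyond that spread, and the highest tissue was the subcommissural organ for Pts and the subfornical organ for Spr and Qdpr. Over the 5 tissues, with each gene centred on its own mean, the profile of Tph1 was closest among the 8 to that of Asmt (distance 2.56), that of Ddc to Gch1 (1.39) and that of Aanat to Spr (1.59). Spr and Qdpr were 1.47 apart and Pts and Qdpr 1.62. These distances describe 5 points each, and those of Asmt and Gch1 depend on values near the floor.

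Outside the pineal gland each comparison had 1 array a side, so there was no replicate check and no test. Against total brain, 0 of 6 measured enzyme genes differed at least 4-fold in the subcommissural organ, where 23.5% of all measured genes did, and 0 of 6 in the ependyma, where 16.7% did. In the subfornical organ Tph1 was below total brain by a log2 difference of -2.0, at 0.475 in the subfornical organ against 1.91 in total brain, the only enzyme gene of 6 at 4-fold, where 16.8% of all measured genes reached it in either direction. Since 0.475 is under the pooled median, that difference is bounded only as at least 1.81-fold lower. Against the ependyma, 0 of 5 measured enzyme genes reached 4-fold in the subcommissural organ, with 12.8% of all genes, and 0 of 5 in the subfornical organ, with 13.4%. The largest of these differences were those of Ddc in the subcommissural organ (9.48, against 31.0 in the ependyma, log2 difference -1.71) and Spr in the subfornical organ (2.73, against 0.886 in the ependyma, at least 2.60-fold higher). Qdpr was 2.39-fold higher in the subfornical organ than in the ependyma, and Aanat 2.02-fold higher.

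Of 15 genes that handle serotonin and other indoles, 10 were measured against total brain, and by limma 1 was higher and 3 were lower, with 7.67% of all measured genes higher and 16.1% lower, or 23.8% called in either direction. Inmt, which methylates tryptamine and related indoles, was at 12.4 and 17.5 in the pineal gland, 0.541 in the subcommissural organ, 15.0 in the subfornical organ, 0.764 in the ependyma and 0.371 in total brain. It was high in the pineal gland and the subfornical organ and under the pooled median in the other tissues, and the gland was at least 14.0-fold above total brain (limma adjusted p 1.09e-11). Maoa, the monoamine oxidase that degrades serotonin, was at 1.89 and 2.63 in the pineal gland and 15.8 in total brain, 7.06-fold lower in the gland (limma adjusted p 0.000807). The serotonin transporter gene Slc6a4 stood at 0.599 and 0.399 in the gland and 2.99 in total brain, at least 2.85-fold lower (limma adjusted p 0.00222), and the acetyltransferase gene Nat2 was at least 3.32-fold lower (limma adjusted p 0.0383). Maob, at 7.67 and 2.22 in the gland and 3.10 in total brain, did not pass, nor did the vesicular monoamine transporter gene Slc18a2, at 1.39 and 1.60 in the gland and 0.481 in total brain (limma adjusted p 0.757 and 0.0875). Aldh2, which oxidises the aldehyde left by monoamine oxidase, was at 4.62 and 5.0 in the gland and 14.1 in total brain, and it also missed the threshold there (limma adjusted p 0.108). Slc18a1, the endocrine form of the vesicular transporter, was at 1.53 and 0.693 in the gland and 0.628 in total brain, and its mean log2 value did not reach the level of a measured gene in that comparison.

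Tryptophan supply and the competing kynurenine branch had 5 measured genes of 11 on the array, of which Slc7a5 was called higher and none lower, where 7.67% of all measured genes were higher and 16.1% lower. Slc7a5, the transporter of large neutral amino acids, was at 10.1 and 4.61 in the pineal gland, 5.35 in the subcommissural organ, 7.32 in the subfornical organ, 0.773 in the ependyma and 0.864 in total brain. The gland overlapped both other organs and was at least 6.49-fold above total brain (limma adjusted p 0.000351). Its heavy chain partner Slc3a2 was at 85.1 and 48.5 in the gland and 81.3 in total brain, which overlap. Wars1, which charges tryptophan to its transfer RNA, was at 17.5 and 16.6 in the gland and 54.2 in total brain, and Kyat1, a kynurenine aminotransferase, at 76.2 and 56.6 in the gland and 38.7 in total brain. Neither passed (limma adjusted p 0.0788 and 0.520), nor did the aromatic amino acid transporter gene Slc16a10, at 1.08 and 1.2 in the gland and 0.971 in total brain.

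The partners and users of tetrahydrobiopterin had 7 measured genes, of which 0 were called higher and 4 lower against total brain. Among all measured genes 7.67% were higher and 16.1% lower. Several marker sums were also below total brain, among them that of neurons, at 9.20 and 7.10 in the pineal gland against 699 in total brain. Catecholamine neurons were at 2.34 and 3.09 against 13.3, and microglia and macrophages at 210 and 207 against 394. Oligodendrocytes were at 5.62 and 5.10 against 445, astrocytes at 93.2 and 40.8 against 253, and vessels at 23.2 and 22.0 against 182. The sums of pinealocyte, choroid plexus and subfornical organ markers were above total brain. The neuron sum of total brain came mostly from Thy1 at 509 and Grin1 at 151. Snap25, of the same list, was under the pooled median on all 6 arrays. The astrocyte sum of the gland came mostly from Gja1, at 88.1 and 39.1 against 98.6 in total brain, which was not called. Gfap, Aqp4 and Aldh1l1 were called lower, and Slc1a2 was under the pooled median in both tissues. The vessel sum of total brain came mostly from Cldn5, at 167 there and at 11.1 and 11.8 in the gland. Cldn5 was called lower, and Pecam1, Flt1 and Rgs5 were not called. Emcn, another vessel marker, was called higher, at 3.52 and 3.22 in the gland and 0.394 in total brain. The sum of microglia and macrophages came mostly from Csf1r, at 156 and 128 in the gland and 231 in total brain, which was not called. Of that list C1qa and Aif1 were called lower. Cd68 went the other way, at 10.3 and 12.4 in the gland and 5.39 in total brain, and was not called there. The part of these cell types in the lower levels of the partners and users was not tested. The 4 partners and users called lower included Agmo, which cleaves ether lipids with the help of the cofactor, and Cbr1, a carbonyl reductase. The others were Th, the tyrosine hydroxylase of catecholamine neurons, and Nos3, the nitric oxide synthase of vessels. Agmo was at 0.694 and 0.818 in the pineal gland and 17.0 in total brain, at least 16.2-fold lower, and Cbr1 at 0.510 and 0.981 in the gland and 10.8 in total brain, at least 10.3-fold lower. Th was at least 10.4-fold lower and Nos3 4.58-fold lower, at 3.10 and 4.08 in the gland and 16.3 in total brain. Gchfr, the protein that lets tetrahydrobiopterin inhibit Gch1, was at 0.883 and 1.35 in the pineal gland, 6.68 in the subcommissural organ, 13.9 in the subfornical organ, 11 in the ependyma and 1.01 in total brain. The pineal gland and total brain overlapped near the pooled median, and the other 3 tissues were higher than both. The gland was 6.11-fold below the subcommissural organ, 12.7-fold below the subfornical organ and 10.1-fold below the ependyma (limma adjusted p 0.00219, 9.00e-06 and 4.95e-05). Nos1 and Akr1b1 did not pass against total brain, with log2 differences of -1.64 and 0.19.

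Genes that supply methyl and acetyl groups had 8 measured members, with 1 higher and 1 lower, where 7.67% of all measured genes were higher and 16.1% lower. Mat2a, which forms the methyl donor that Asmt uses, was at 32.5 and 20.5 in the pineal gland, 8.85 in the subcommissural organ, 15.7 in the subfornical organ, 7.43 in the ependyma and 7.20 in total brain. It was highest in the gland without overlap and 3.59-fold above total brain (limma adjusted p 0.0466), close to the smallest difference called there. Mat2a was not called against the ependyma, the subcommissural organ or the subfornical organ. Slc25a1, which exports citrate from mitochondria for acetyl groups, was at 4.2 and 2.86 in the gland and 42.1 in total brain, 12.1-fold lower (limma adjusted p 9.09e-06). Acly, which turns that citrate into acetyl coenzyme A, was at 108 and 70.0 in the gland, above every other tissue, but its log2 difference of 1.17 from total brain, at 38.6, did not pass (limma adjusted p 0.263). Pdha1, Ahcyl1 and Ahcyl2 did not pass either.

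Among genes of the pineal drive on Aanat and of pineal transcription, 13 were measured, and by limma 5 were called higher and 2 lower, with 7.67% of all measured genes higher and 16.1% lower. Pax4, a homeodomain factor, was at 131 and 124 in the pineal gland, 1.42 in the subcommissural organ, 10.6 in the subfornical organ, 3.28 in the ependyma and 0.797 in total brain, at least 122-fold above total brain. Rxrg, a retinoid receptor, was 43.7-fold higher, at 106 and 68.5 in the gland and 1.95 in total brain. Neurod1, a helix-loop-helix factor, was at least 6.61-fold higher, and Crem, whose inducible form turns off cAMP-driven transcription, at least 2.30-fold higher. Crem was at 2.67 and 2.20 in the pineal gland, 0.747 in the subcommissural organ, 7.83 in the subfornical organ, 1.04 in the ependyma and 0.344 in total brain, so that the subfornical organ was above the gland. Otx2, which the gland needs to form, was at 214 and 140 in the pineal gland, 124 in the subcommissural organ, 42.2 in the subfornical organ, 23.7 in the ependyma and 19.4 in total brain, 8.93-fold above total brain (limma adjusted p 0.000131) and not called against the subcommissural organ (log2 difference 0.48, 95% interval -0.92 to 1.88). Crx was at 2.34 and 1.75 in the gland, the only tissue where it was above the pooled median, and its log2 difference from total brain, 1.09, did not pass (95% interval -0.33 to 2.51). Ywhah and Ywhab, of the adaptor family that binds phosphorylated Aanat protein, were 4.89-fold and 3.84-fold lower in the gland than in total brain (limma adjusted p 0.00924 and 0.0338).

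Melatonin receptors and targets had 4 measured genes against total brain and none was called, where 7.67% of all measured genes were higher and 16.1% lower. Mtnr1a was between -0.135 and 0.467 on all arrays, under the pooled median. Mtnr1b was at 2.28 and 1.83 in the pineal gland, 3.00 in the subcommissural organ, 3.08 in the subfornical organ, 3.51 in the ependyma and 3.52 in total brain, lower on both pineal gland arrays than on any other, with a log2 difference of -0.79 from total brain (95% interval -2.20 to 0.63). Rorb, a nuclear receptor gene of the list, was at 11.5 and 5.13 in the gland and 4.23 in total brain, and was called higher against the ependyma, the subcommissural organ and the subfornical organ. Rora and Nqo2 did not pass against total brain. Of the catecholamine synthesis list only Th was measured against total brain, as given with the users of the cofactor.

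Against the other tissues some of these calls recurred, in comparisons that share the pineal gland arrays. Pax4, Rxrg and Neurod1 were called higher by limma against all 3 of them, as part of 4 higher calls of 13 measured genes of the pineal drive against the ependyma, 4 of 13 against the subcommissural organ and 5 of 13 against the subfornical organ, with 0 lower calls in each. The shares of all measured genes called higher were 7.25% against the ependyma, 9.29% against the subcommissural organ and 7.02% against the subfornical organ. Slc25a1 was called lower against all 3, by 6.23-fold against the ependyma, 7.72-fold against the subcommissural organ and 14.5-fold against the subfornical organ. Of the partners and users of tetrahydrobiopterin, 0 were called higher and 3 lower in each of the 3 comparisons, with Gchfr and Cbr1 lower in every one, and 12.9%, 11.5% and 13.7% of all measured genes were lower against the ependyma, the subcommissural organ and the subfornical organ. Of the genes that handle indoles, Aldh2 was lower against all 3, by 18.3-fold against the ependyma, 11.3-fold against the subcommissural organ and 7.13-fold against the subfornical organ. Inmt was at least 14.0-fold higher against the ependyma and the subcommissural organ and did not differ past the threshold from the subfornical organ (log2 difference -0.03, 95% interval -1.45 to 1.39). Sult1a1, a sulfotransferase, was called higher against the subcommissural organ and lower against the subfornical organ.

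**Figure D4:**
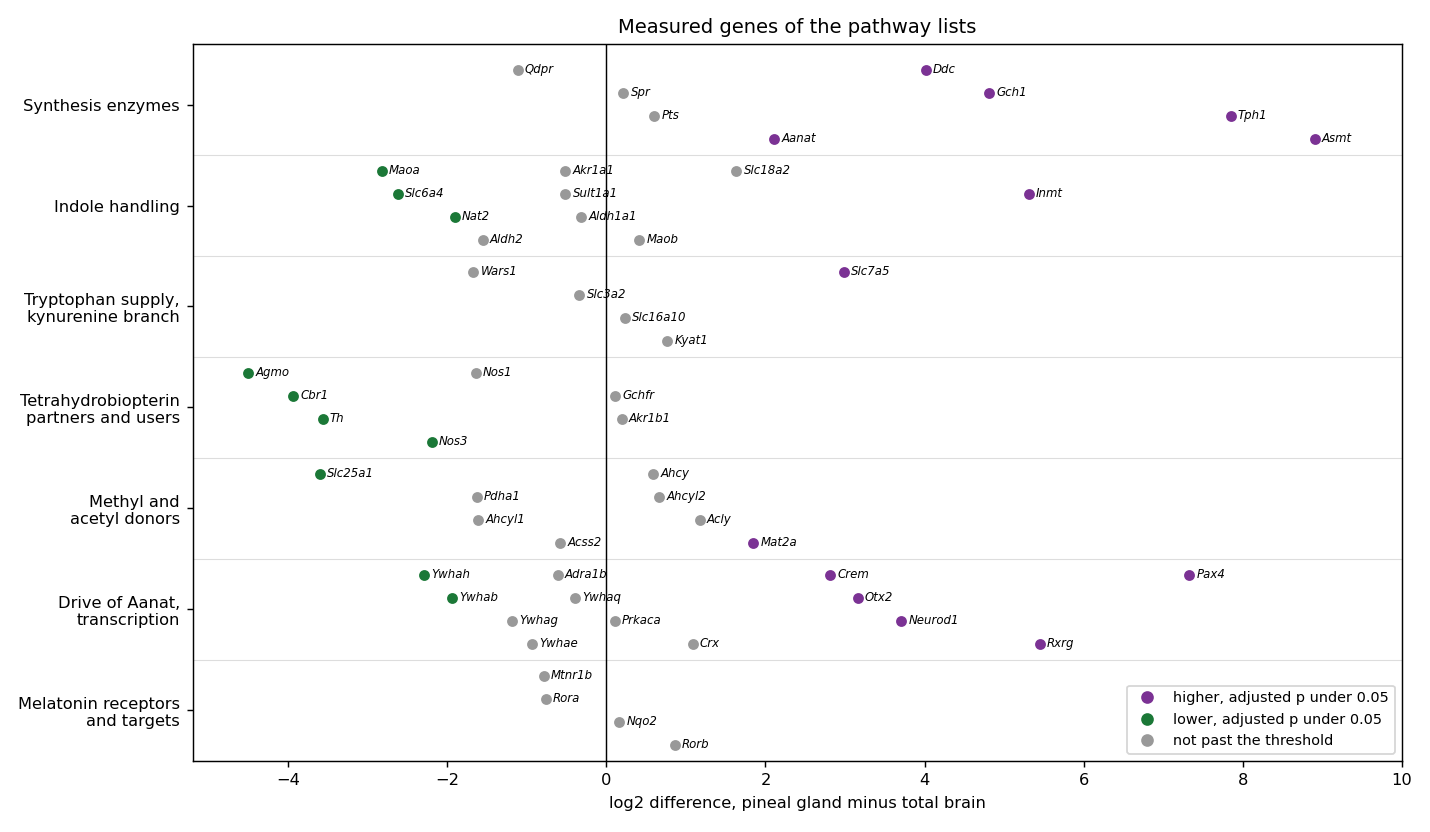
Log2 difference of the pineal gland minus total brain for each measured gene of the pathway lists, 1 point per gene, in purple where called higher and in green where called lower by limma at an adjusted p under 0.05. The called synthesis enzymes lie between 2.11 and 8.90, whereas the 4 called partners and users of tetrahydrobiopterin lie between -4.50 for Agmo and -2.20 for Nos3.

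The genes most like Tph1, Aanat and Asmt were taken from 6728 genes whose highest tissue reached the 75th percentile, by the distance between log2 profiles over the 5 tissues. Nearest to Tph1 was Gngt1, a photoreceptor transducin subunit, at 444 and 531 in the pineal gland, 0.895 in the subcommissural organ, 0.423 in the subfornical organ, 0.543 in the ependyma and 1.42 in total brain (distance 0.50, Pearson r 0.999 over 5 tissues). It was followed by Fabp12, Col8a1, Sag and Miox, at distances between 1.51 and 2.01. Nearest to Asmt was Pde6c, a cone phosphodiesterase subunit, at 143 and 96.1 in the gland and 0.384 in total brain (distance 0.88, r 0.995), followed by Krt15, Sag, F5 and Guca1b at distances between 1.48 and 2.05. Sag, the visual arrestin, was thus on both lists, at 338 and 338 in the gland and 1.61 in total brain.

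The pattern of Aanat had other neighbours. They were Pgm1 (distance 0.22, r 0.996), Hadh (0.37), Traf3ip2 (0.46), Mgp (0.53) and Fbln2 (0.53), and none of the 5 was among those of Tph1 or Asmt. Pgm1, a phosphoglucomutase of glycogen metabolism, was at 35.1 and 20.0 in the pineal gland, 2.70 in the subcommissural organ, 11.9 in the subfornical organ, 5.58 in the ependyma and 7.28 in total brain. As with Aanat, the gland was highest, the subfornical organ next and the subcommissural organ lowest. These likenesses are over 5 points with 1 array in 4 of them, and low values of Tph1 and Asmt outside the gland carry part of the distance.

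**Figure D5:**
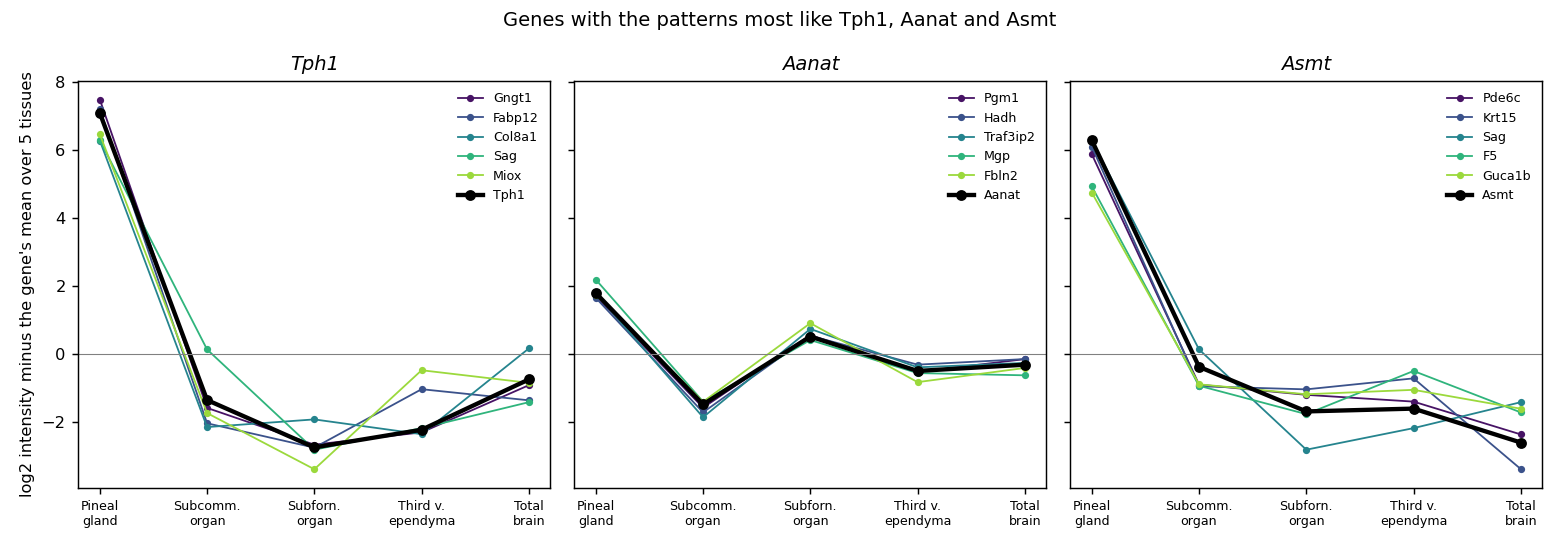
Log2 intensity minus the gene's own mean over the 5 tissues, for Tph1, Aanat and Asmt (thick black lines) and the 5 genes nearest to each (thin lines), with the pineal gland arrays averaged. The neighbours of Tph1 and Asmt peak in the gland and are low in all other tissues, while those of Aanat have a second, lower level in the subfornical organ.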

How the data were processed

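Total RNA of 6 samples was hybridised to 1-colour arrays. The authors deposited linear intensity values, 1 for each probe on each array. Their medians are close to 1 on all arrays. The scanner, the background correction, the scaling and any detection call are not given in the sources used here. Per the deposited table there were 35129 probes, 34963 of them complete. Names came from the platform annotation, which gave 1 symbol for 16865 probes, several for 165 and was not given for 18099. The identifiers of 16836 probes were found in a RefSeq gene table, which updated 1 symbol.

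The pooled 5th percentile served as a floor before log2, and nothing was rescaled. A gene was represented by the probe with the highest mean log2 value over the 6 arrays. A gene was measured where the higher side reached the pooled median. Folds whose lower side was under that median were computed against it and written as "at least". The pineal gland was compared with each other tissue by limma 3.58.1 in R 4.3.3 (lmFit and eBayes, two-sided, Benjamini-Hochberg over all measured genes, all 6 arrays, a mean per tissue). Other comparisons had 1 array a side and no test, and used a 4-fold difference. The fit was run on simulated arrays in which every gene had the same spread, taken from the pineal gland pair. That run cannot check whether the single-array tissues vary like that pair. Alternatives were 2 scalings, 2 filters, 2 floors, 2 treatments of several probes, a trend of the spread on the level and leaving out each pineal gland array.

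Named were all 8 enzymes, up to 6 measured genes of each list with the largest difference of pineal gland against total brain, a fixed set of close relatives and partners, and the 5 genes most like Tph1, Aanat and Asmt. The enzymes and the lists were chosen with earlier results of these data known. Listed genes without a probe were not analysed here.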

Additional observations from a re-analysis of the deposited data

How the results depend on the processing

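Over all alternatives that tested them, Tph1, Ddc, Asmt and Gch1 kept their calls against all 4 tissues, while their adjusted p-values in limma reached 0.0144, 0.0238, 0.0144 and 0.0172 under quantile normalization or without the filter on low values, a change whose cause was not tested. Aanat lost its call against total brain and the ependyma without the filter and with every probe on its own, at unchanged log2 differences of 2.11 and 2.29. Whether genes of the other lists kept their calls under these alternatives is not given here. Gch1 and Spr could not be given with the filter at the 75th percentile. Raising values to the pooled median was chosen after seeing the data. It left 4 enzymes at 4-fold against total brain, the ependyma and the subcommissural organ, without Gch1, and 3 against the subfornical organ. Among all measured genes 378 of 9072, 399 of 8963, 490 of 8840 and 359 of 9003 were then 4-fold higher in the gland, with the tissues in that order. Leaving out either pineal gland array kept 5, 5, 5 and 4 enzymes at 4-fold against total brain, the ependyma, the subcommissural and the subfornical organ. Without the first array, 558 of 9069, 536 of 8987, 717 of 8882 and 511 of 9009 measured genes were 4-fold higher in these comparisons. Without the second array, 729 of 9166, 740 of 9076, 863 of 8943 and 747 of 9118 were. Single-array counts of enzymes at 4-fold became 1 for the subcommissural organ against total brain without a filter (Asmt). Of all 12167 genes 929 were 4-fold higher and 1461 lower there. The count became 0 for the subfornical organ against total brain under quantile normalization, 75th percentile scaling, the filter at the 75th percentile and the floor at the median. No result changed sign past its threshold. Calls in limma over all genes against total brain, the ependyma, the subcommissural and the subfornical organ were 2160, 1810, 1838 and 1866. They were 991, 724, 725 and 622 without a filter, and 1216, 1123 and 1043 after quantile normalization against total brain, the ependyma and the subfornical organ, and 3470 probes against total brain. The split of higher to lower calls against total brain was 696 to 1464 as deposited, 575 to 641 after quantile normalization and 1036 to 860 after 75th percentile scaling. Against the ependyma it was 650 to 1160, 494 to 629 and 686 to 909, against the subcommissural organ 821 to 1017, 723 to 614 and 910 to 771, and against the subfornical organ 632 to 1234, 468 to 575 and 712 to 830. The 4-fold counts of the pineal gland comparisons in the same order became 1233, 1030, 1046 and 1058 genes with the filter at the 75th percentile and 5090, 4000, 3888 and 4272 probes. That filter left 1411, 866 and 877 genes against total brain (in the subcommissural organ, then the subfornical organ, then the ependyma), and 567 and 620 for the subcommissural and the subfornical organ against the ependyma, where the floor at the median left 693 and 772. No paired analysis was possible, because the labels link no animals across tissues and every tissue but the pineal gland had 1 array. Limits are the single spread from the pineal gland pair, the unknown limit of detection, and levels under the pooled median, which bound a fold but do not give it.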
